A study of Mus musculus with 4 samples.

Results

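The genes that write, copy, protect and remove DNA methylation were examined in F123-ESCs, with each parental copy measured apart. The set held Dnmt1, Dnmt3a, Dnmt3b, Dnmt3l, Uhrf1, Tet1, Tet2, Tet3, Tdg and Zfp57, and each was taken from the deposited RNAseq table by its MGI symbol. All 10 were found among the 24026 genes listed. F123-ESCs are male mouse embryonic stem cells (ESCs) of an F1 cross, in which the mother gave the S129 copy of every autosome and the father the CAST copy. RNAseq of polyA-enriched RNA from untreated cells was done in 4 libraries, named replicates 1 to 4, and every library gave 1 RPKM value (reads scaled to gene length and to the total) for each copy. The cells were grown on inactivated mouse fibroblasts, passaged at least 2 times on gelatin without them, and harvested about 48 h after plating. All libraries are of this 1 condition, so the comparisons are between the S129 and CAST copies within a library and between genes. The labels do not say whether the libraries came from separate cultures, so the p-values measure the spread between these libraries, which may be technical.

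DNA methylation in mammals is a methyl group on cytosine, mostly where cytosine precedes guanine. De novo methyltransferases place it, and a maintenance methyltransferase copies it to the new strand after replication, guided by a protein that binds the hemimethylated site. TET dioxygenases oxidise the methyl group, and a glycosylase cuts out the later oxidation products so that repair restores plain cytosine. ESCs are known for high activity of both arms, and imprinted regions keep their parental marks there with the help of a sequence-specific zinc finger protein.

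Between 17403695 and 28772351 reads per library were assigned to S129, and between 16716721 and 27855621 to CAST, with replicate 4 the shallowest for both. All 6 stem cell markers were above 1 RPKM, with a summed level of 7101 to 8859 RPKM over the libraries, and all 6 naive pluripotency markers were too. Most of the stem cell sum was Dppa5a, at a mean of 7111 RPKM, while Nanog was at 84.5 and Pou5f1 at 29.5 RPKM. Of 8 markers of fibroblasts, 5 were above 1 RPKM. Col1a2 reached 165.8 ± 17.5 RPKM (SD, n = 4), while Dcn stood at 0.659 and Lum at 0.0462. The others above 1 RPKM were Postn at 15.4, Col3a1 at 11.4, Col1a1 at 5.68 and Thy1 at 1.57 RPKM. Marker levels are as deposited, and how far they depend on gene length was not tested. The summed level of the fibroblast markers, most of it Col1a2, was lowest in replicates 1 and 4, at 179 and 190.1 RPKM. It was higher in replicates 2 and 3, at 210.4 and 224 RPKM. Among markers of other states, 5 of 6 for early differentiation, 3 of 6 for primitive endoderm and 1 of 6 for two-cell-like cells were above 1 RPKM, and Zscan4c was at 0 in all libraries.

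Levels here are the mean of both copies' RPKM, and 9 of the 10 genes were clearly detected. Uhrf1 was the highest of those whose RPKM rests on a full-length transcript, followed by Dnmt3b and Dnmt1. Zfp57, Tet1, Dnmt3a and Tet2 lay close together, Tet3 stood near 1 RPKM, and Tdg was almost without reads. The deposited value of Dnmt3l was far above all others but rests on a very short transcript, described further on. The level ranges over the 4 libraries did not overlap between neighbours in this order, except between Zfp57 and Tet1 and between Dnmt3a and Tet2.

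**Figure D1:**
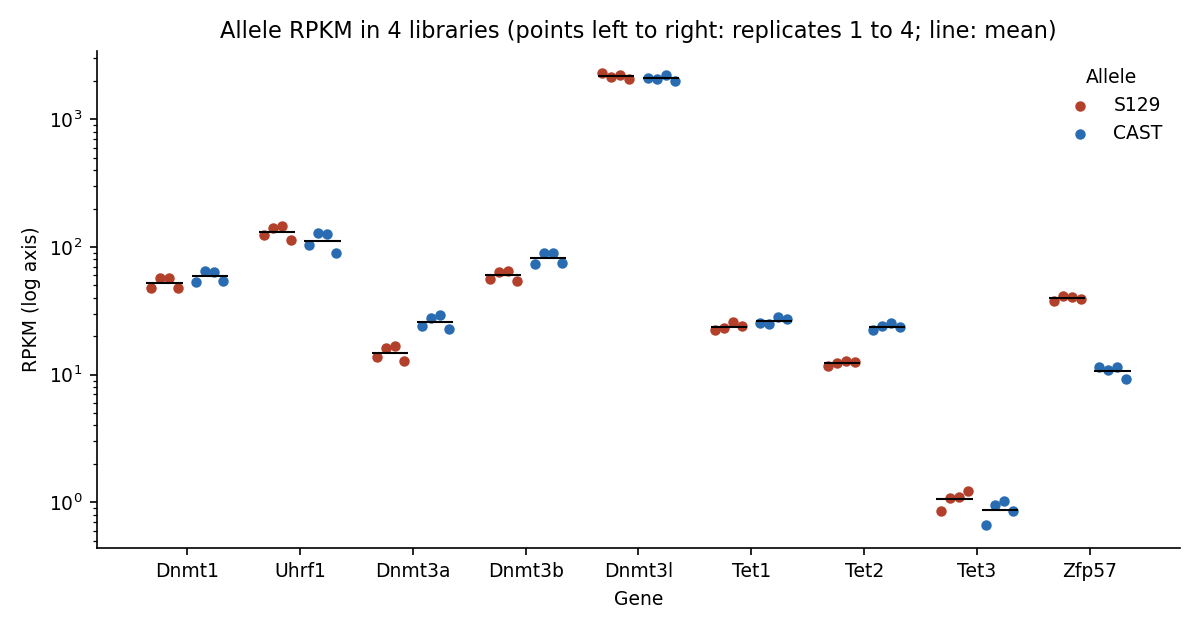
RPKM (log axis) of 9 genes on the S129 and CAST copies, with a point for each of the 4 libraries and a line for their mean; Tdg, at 0 in 5 of 8 columns, is not drawn. The copies stand furthest apart for Zfp57, Tet2 and Dnmt3a, and Tet3 is the lowest of the genes drawn.

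Of the 9 genes above the filter of 1 RPKM over both copies together, 8 differed between the copies. The test was limma on the within-library difference log2(S129 RPKM + 0.1) minus log2(CAST RPKM + 0.1), adjusted by Benjamini-Hochberg over all 13341 genes tested. Such a call was common, at 61.4% of the 12869 autosomal genes tested and 62.7% of all genes tested. Zfp57, Uhrf1 and Tet3 were higher on S129, where the background was 28.9% of autosomal genes, and Dnmt1, Dnmt3a, Dnmt3b, Tet1 and Tet2 were higher on CAST, where it was 32.5%. The median size of the difference was 0.26 on the log2 scale for these 9 genes and 0.29 for all autosomal genes tested. Only Zfp57 differed by at least 1 on the log2 scale, as did 11.9% of autosomal genes. The median size was thus close to that of the background, and whether 8 of 9 exceeds the background share was not tested. The strain of the feeder fibroblasts is not given in the sources used here, and the part of their RNA in any of these differences was not tested. In such bulk libraries, fewer cells that express a gene and less RNA per cell cannot be told apart.

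**Figure D2:**
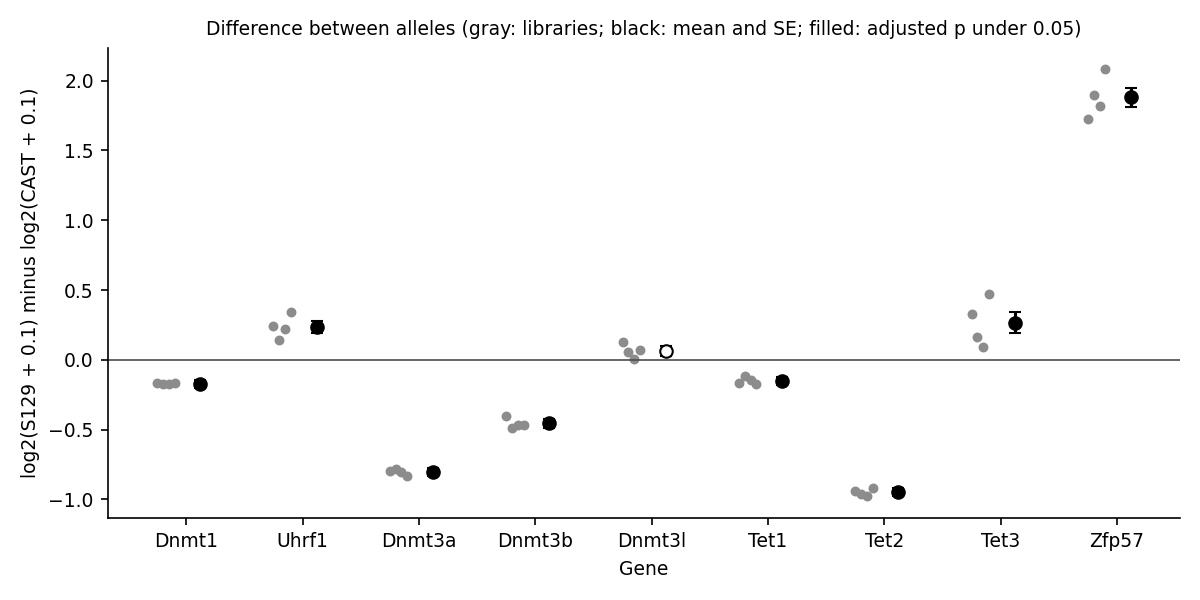
Difference between the copies on the log2(RPKM + 0.1) scale for 9 genes, with the 4 libraries in gray and the mean with its limma standard error in black, filled where adjusted p was under 0.05. Values above 0 are higher on S129, and all 4 libraries of every gene lie on 1 side of 0, including those of Dnmt3l, the gene that was not called.

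Dnmt1, the maintenance methyltransferase (chr9:20907209-20959888, minus strand, mm10), was at 47.4, 57.2, 56.8 and 48.0 RPKM on S129 and at 53.2, 64.4, 64.2 and 53.8 RPKM on CAST in replicates 1 to 4. Values of both copies were lower in replicates 1 and 4 than in 2 and 3, and the ranges of the copies overlapped, yet CAST was higher within every library. The within-library difference was -0.17 ± 0.03 on the log2 scale (SE, n = 4, limma adjusted p = 0.00695). S129 took between 47.9% and 48.1% of the 10182 to 17926 Dnmt1 reads of a library, a range narrower than the exact binomial 95% interval of a single library, such as 47.1% to 48.6% for replicate 1. Without the pairing by library the call was lost (limma adjusted p = 0.223).

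Uhrf1, which binds hemimethylated sites and recruits Dnmt1 to them (chr17:56303321-56323486, plus strand), was at 123.2, 141, 147 and 114 RPKM on S129. On CAST it was at 104, 128, 126 and 89.9 RPKM, below S129 in each library, with overlapping ranges. The difference of 0.24 ± 0.04 on the log2 scale was called (limma adjusted p = 0.00983), and the call was lost without the pairing (limma adjusted p = 0.187). The S129 share of Uhrf1 reads went from 53.5% in replicate 2 (exact binomial 95% interval 52.9% to 54.1%) to 56.9% in replicate 4 (56.0% to 57.8%), so it varied between libraries by more than counting error. Of the 3487 stretches of 100 bases in the Uhrf1 transcript, 246 also occur in the processed pseudogene Gm5648 on chromosome X. A read from within these stretches cannot be placed by its own bases, and the other read of a pair was not examined.

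Set side by side in each library, Uhrf1 was higher than Dnmt1 in 4 of 4, at 121.7 ± 16.8 against 55.6 ± 5.8 RPKM (mean ± SD of the level, n = 4). The within-library log2 level difference of Dnmt1 minus Uhrf1 was -1.12 ± 0.08 (SD), with an adjusted p of 0.13 by the exact sign-flip permutation test. This is the smallest p that 4 libraries allow for any of the 6 pairs of levels compared, and all 6 reached it.

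Among the de novo enzymes, Dnmt3a and Dnmt3b carry the catalytic activity, and both were higher on CAST. Dnmt3a (chr12:3806007-3914443, plus strand) was at 13.8, 16.1, 16.7 and 12.8 RPKM on S129 and at 24.2, 27.7, 29.3 and 22.9 RPKM on CAST. All 4 CAST values exceeded all 4 S129 values. The difference was -0.80 ± 0.03 on the log2 scale (limma adjusted p = 6.74e-05), or 1.75-fold higher on CAST. S129 took 36.8% to 37.7% of the 2429 to 4433 Dnmt3a reads of a library.

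Dnmt3b (chr2:153649450-153687730, plus strand) was at 56.2, 64.3, 65.2 and 54.4 RPKM on S129. On CAST it was at 74.2, 90.1, 90.2 and 75.3 RPKM, and again the ranges did not overlap. The difference of -0.46 ± 0.03 on the log2 scale (limma adjusted p = 0.000473) is 1.37-fold in favour of CAST. Dnmt3b lies beside Dnmt3c, a copy of it on the same strand of chromosome 2, and 241 of its 4109 stretches of 100 bases are identical in Dnmt3c. To show how alike they are, the coding bases 2463 to 2612 of the Dnmt3b transcript (GENCODE M21, spliced from chr2:153678473-153683673) are given, which Dnmt3c carries with 0 differences in its own exons at chr2:153723484-153726541:
Dnmt3b: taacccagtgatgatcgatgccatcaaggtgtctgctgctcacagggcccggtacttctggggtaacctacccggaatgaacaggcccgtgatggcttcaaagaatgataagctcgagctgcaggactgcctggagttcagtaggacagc
Taken by itself, a read of up to 150 bases from within this stretch cannot be told from one of Dnmt3c, which is not among the genes listed. Sequencing was paired-end per the study's methods, and the place of the other read of a pair was not examined.

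Dnmt3l, which lacks catalytic activity and stimulates Dnmt3a and Dnmt3b (chr10:78041947-78063622, plus strand), was at 2294, 2144, 2229 and 2090 RPKM on S129. On CAST it was at 2103, 2065, 2223 and 1989 RPKM, lower than S129 in every library and by very little in replicate 3. Its difference of 0.06 ± 0.04 on the log2 scale did not pass the test (limma adjusted p = 0.178). S129 took 51.0% to 53.0% of the 14621 to 26162 Dnmt3l reads of a library. Under 2 of 13 other settings the difference was called, with columns rescaled to 1 sum over autosomal genes (0.11, limma adjusted p = 0.0492) and with a variance trend (limma adjusted p = 0.0365).

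The length by which reads were divided set the place of Dnmt3l among the others. RPKM values of a column fall on steps of 1 read, which give back the reads and the length behind each value. For most genes that length is of the transcript listed first in the annotation. For Dnmt3l it is 210 bases, the length of the noncoding transcript Dnmt3l-204, against 1822 bases for the longest protein-coding transcript and 2988 bases for all annotated exons. A multiple of 210 bases would give whole reads as well and would raise the reads and the levels below by the same factor, but none of the annotated Dnmt3l transcripts has such a length. Divided by the longest protein-coding transcript, the level of Dnmt3l was 247 ± 9.9 RPKM, and divided by all exons it was 151 ± 6.0 RPKM (SD, n = 4), in place of 2142 ± 85.9 RPKM as deposited. It remained the highest of the 10 genes under each length, while its rank was 325 among the 20122 genes with recovered lengths by all exons and 57 among all 24026 genes listed as deposited.

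Dnmt3a was affected in the same way, since its values rest on the 4014 bases of Dnmt3a-212, a transcript annotated as a retained intron. Its level of 20.4 ± 2.4 RPKM became 8.47 ± 1.0 RPKM with the 9685 bases of the longest protein-coding transcript and 4.93 ± 0.59 RPKM with the 16642 bases of all exons. Dnmt3b, divided by 4208 bases, stood at 71.2 ± 7.2 RPKM as deposited and at 58.7 ± 5.9 RPKM by all exons. Dnmt3b was higher than Dnmt3a in 4 of 4 libraries by 1.80 ± 0.05 on the log2 scale (SD of the level difference, adjusted exact sign-flip p = 0.13), which is 3.48-fold. By all exons, Dnmt3a lay below Tet2 without overlap, whereas as deposited the 2 genes overlapped. The ratio of Dnmt3b to Dnmt3a became 8.12-fold by the longest protein-coding transcript and 11.7-fold by all exons. Dnmt3l exceeded Dnmt3a by 6.71 ± 0.15 on the log2 scale as deposited (adjusted exact sign-flip p = 0.13) and by 4.86 and 4.91 with those lengths.

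**Figure D3:**
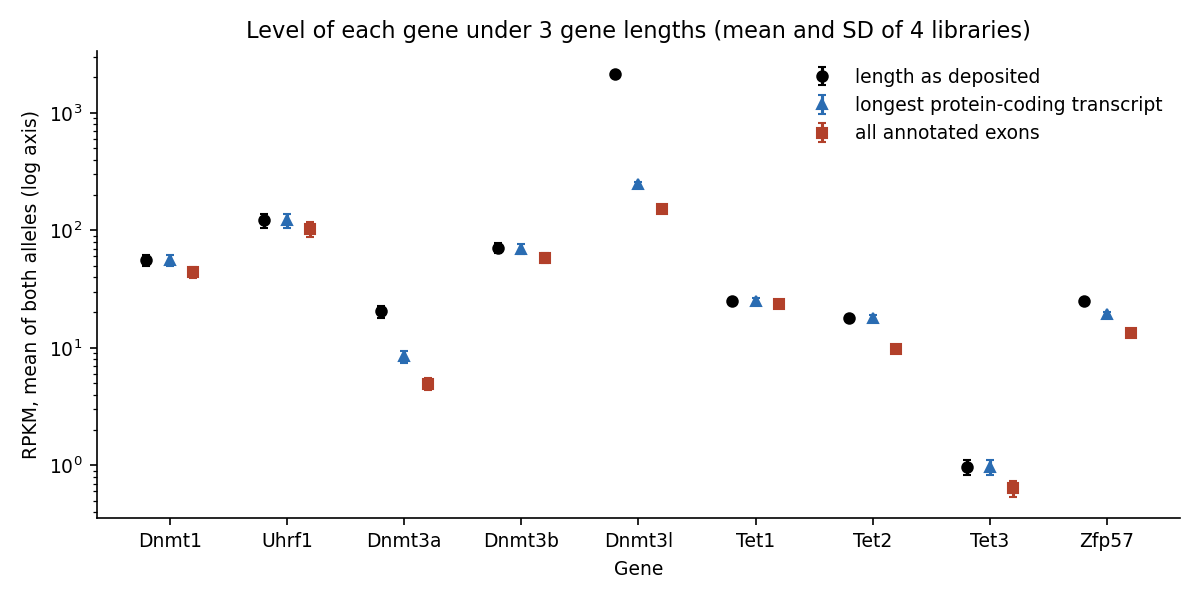
Level (mean of both copies' RPKM, log axis) of 9 genes when reads are divided by the length behind the deposited values, by the longest protein-coding transcript or by all annotated exons, with the SD of 4 libraries. Dnmt3l and Dnmt3a move the most, and Dnmt3l stays the highest of the genes drawn under each length.

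Among the TET dioxygenases, Tet1 and Tet2 were far above Tet3 in level, and Tet2 differed the most between the copies. Tet1 (chr10:62804570-62908996, minus strand) was at 22.4, 23.1, 25.7 and 24.1 RPKM on S129 and at 25.2, 25.1, 28.5 and 27.2 RPKM on CAST, higher on CAST within each library although the ranges overlapped. The difference was -0.15 ± 0.03 on the log2 scale (limma adjusted p = 0.0121). This call was lost without the pairing (limma adjusted p = 0.145), without replicate 1 (0.0519) and without replicate 3 (0.053).

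Tet2 (chr3:133463679-133545139, minus strand) was at 11.6, 12.3, 12.8 and 12.5 RPKM on S129. On CAST it was at 22.3, 24.0, 25.3 and 23.7 RPKM, and every CAST value exceeded every S129 value. The difference of -0.95 ± 0.03 on the log2 scale (limma adjusted p = 4.48e-05), or 1.93-fold, was the largest in favour of CAST in the set. The genes around Tet2 leaned the same way. The median S129 share of the RPKM was 37.5% over the 71 genes tested within 10 Mb and 37.2% over the other 621 genes tested on chromosome 3, against 34.0 ± 0.4% for Tet2 and 49.6% for all autosomal genes. With the median of the genes within 10 Mb taken out, the difference of Tet2 was -0.24 ± 0.03 (limma adjusted p = 0.00522).

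Tet3 (chr6:83362373-83459084, minus strand) had 389 to 562 reads in a library and was at 0.857, 1.09, 1.11 and 1.23 RPKM on S129. On CAST it was at 0.662, 0.961, 1.03 and 0.856 RPKM, below S129 in each library, with overlapping ranges. The difference of 0.26 ± 0.08 on the log2 scale was called (limma adjusted p = 0.0366). With a pseudocount of 1 it was 0.14 ± 0.05 (limma adjusted p = 0.0431). Several other settings ended this call. It was lost without the pairing (limma adjusted p = 0.166), without replicate 1 (0.119), replicate 2 (0.0719) or replicate 4 (0.0694), and with the median of the genes within 10 Mb taken out it was -0.01 ± 0.07 (0.957). The S129 share of Tet3, 55.1 ± 3.2% of the RPKM (SD, n = 4), lay beside a median of 54.4% for the 109 genes within 10 Mb.

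Per length, Tet1 was 23.7-fold higher than Tet3, Tet2 was 17.1-fold higher than Tet3, and Tet1 was 1.39-fold higher than Tet2, each in 4 of 4 libraries and each with an adjusted exact sign-flip p of 0.13. Tet1 and Tet2 stood at 25.2 ± 1.5 and 18.1 ± 0.9 RPKM, and Tet3 at 0.973 ± 0.14 RPKM (level, SD, n = 4). Division by all exons raised the Tet1 to Tet2 ratio to 2.36-fold, since annotated exons of Tet2 span 16870 bases against the 9179 bases behind its RPKM. The length by which a gene is divided and the number of strain SNPs it carries both enter a level made from allele-assigned reads, and the second was not tested.

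Tdg, the glycosylase that removes the oxidised products of TET activity (chr10:82629828-82650799, plus strand), had 5 reads in all libraries together. It was at 0, 0, 0.0138 and 0 RPKM on S129 and at 0.0364, 0, 0.0143 and 0 RPKM on CAST, and did not pass the filter. With no filter on low values its difference was -0.11 ± 0.10 on the log2 scale (limma adjusted p = 0.422), which rests on these 5 reads. A column with 0 reads allows up to 3 reads, or 0.0352 to 0.0606 RPKM depending on the library. Of the 2860 stretches of 100 bases in the Tdg transcript, 1293 (45.2%) also occur, in the same orientation, in transcripts of other annotated genes. These genes are the processed pseudogenes Tdg-ps with 968, Gm9855 with 671, Gm5597 with 594 and AC122846.1 with 72. The coding bases 402 to 551 of the Tdg transcript (spliced from chr10:82641429-82642041) show this, because Tdg-ps (chr15:82516724-82516873), Gm9855 (chr10:42054917-42055066) and Gm5597 (chr7:76245550-76245699) each carry them with 0 differences:
Tdg: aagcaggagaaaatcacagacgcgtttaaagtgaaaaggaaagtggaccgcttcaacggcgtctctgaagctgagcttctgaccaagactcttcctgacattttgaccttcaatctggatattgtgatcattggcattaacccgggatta
None of these pseudogenes is among the genes listed, and how reads that match several places were counted is not given in the sources used here. Their part in the low value of Tdg was not tested, so the value is that of reads counted, not a measure of whether Tdg is expressed.

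Zfp57, the zinc finger protein that binds methylated imprinting control regions and recruits Trim28 (chr17:37001163-37010635, plus strand), stood apart between the copies. It was at 37.9, 41.2, 40.9 and 39.3 RPKM on S129 and at 11.4, 11.0, 11.5 and 9.19 RPKM on CAST. The lowest S129 value was over 3 times the highest CAST value. The difference was 1.88 ± 0.07 on the log2 scale (limma adjusted p = 6.72e-05), or 3.69-fold in favour of S129. S129 took from 77.4% of the 2801 Zfp57 reads in replicate 1 (exact binomial 95% interval 75.8% to 79.0%) to 81.6% of the 1667 reads in replicate 4 (79.7% to 83.5%). Of the 245 genes tested within 10 Mb of Zfp57, 243 had a lower S129 share, and their median was 48.8%. Taking that median out left the difference at 1.94 ± 0.08 (limma adjusted p = 0.000176).

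**Figure D4:**
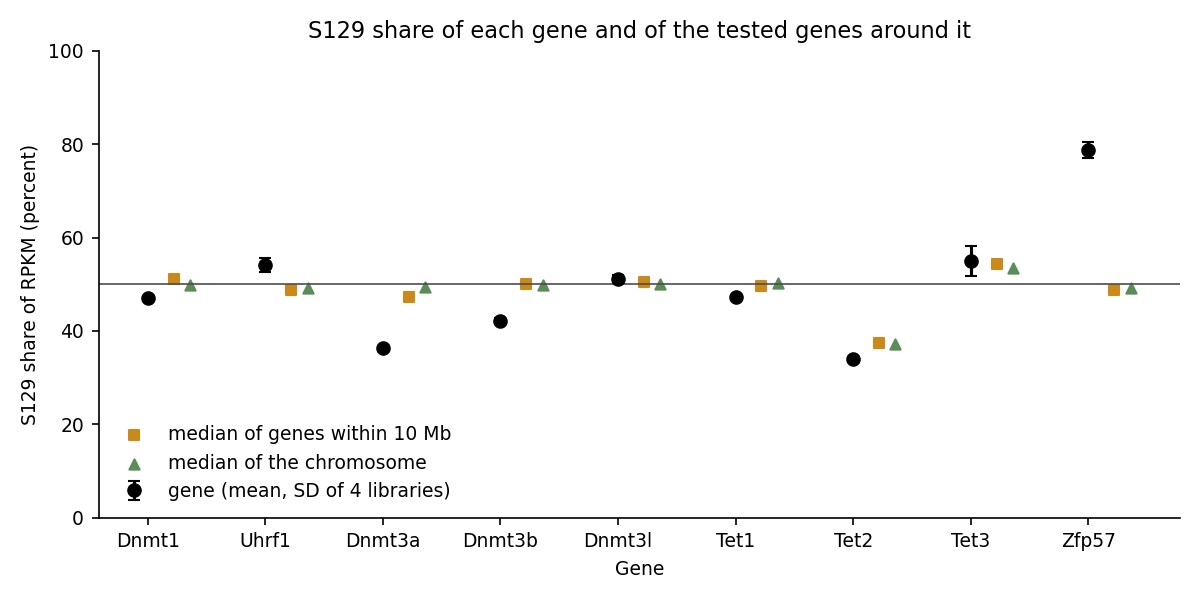
S129 share of the RPKM in percent for 9 genes (black, mean and SD of 4 libraries), with the median of the tested genes within 10 Mb (squares) and on the same chromosome (triangles); the line marks 50%. Zfp57 lies far above and Dnmt3a and Dnmt3b below the genes around them, while Tet2 and Tet3 lie near theirs.

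The same view of the other genes placed Dnmt3a at a share of 36.3 ± 0.3% of the RPKM against a median of 47.2% for the 41 genes tested within 10 Mb, of which 4 had a lower share. Dnmt3b was at 42.2 ± 0.7% against 50.0% for 168 genes, of which 26 were lower. Dnmt1, at 47.1 ± 0.1% against 51.2%, and Uhrf1, at 54.1 ± 1.4% against 48.8%, lay on opposite sides of the genes around them. With the median within 10 Mb taken out, Dnmt3a, Dnmt3b, Dnmt1 and Uhrf1 were all still called, at -0.66, -0.44, -0.23 and 0.30 on the log2 scale (limma adjusted p = 0.000405, 0.00071, 0.00423 and 0.00563).

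Between libraries, Dnmt1, Dnmt3a, Dnmt3b, Uhrf1 and Zfp57 had higher levels in replicates 2 and 3 than in replicates 1 and 4. This pattern, chosen after the values were seen, was found in 5 of the 9 genes and in 51.3% of all autosomal genes tested, so it is not a property of the set. The summed fibroblast markers were also higher in replicates 2 and 3, and their part in the pattern was not tested. The levels varied little in any case, with a coefficient of variation from 3.9% for Zfp57 to 14.7% for Tet3.

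Genes on the opposite strand overlap several of these loci, namely Aire at Dnmt3l, Dnmt3aos at Dnmt3a, Dnmt3bos at Dnmt3b, Gm42567 at Tet2, B230319C09Rik at Tet3 and Glt8d2 at Tdg. The libraries were stranded, but whether strand was used in counting is not given in the sources used here, so reads in the overlaps cannot be told apart.

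The partners of these enzymes were described by 8 lists, and a further list holds imprinted transcripts. List names are labels, and the role of each gene was not tested. Levels of the genes on the lists are as deposited, and how far they depend on gene length was not tested. Of the 82 genes on the 9 lists, 81 were listed in the table and 77 passed the filter. On autosomes 46 of 72 (63.9%) differed between the copies, 22 higher on S129 and 24 higher on CAST, near the 61.4% of all autosomal genes. The other 5 are on the X chromosome, of which male cells carry only the maternal S129 copy, and were near 0 on CAST. For example, Ogt, which binds TET proteins and adds a sugar to their partner Hcfc1, was at 51.5 to 61.1 RPKM on S129 and at 0.028 to 0.0779 RPKM on CAST.

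As background for the counts of each list, 28.9% of autosomal genes tested were higher on S129 and 32.5% on CAST. No count of a list was tested against these shares. Genes on the list of maintenance partners were all above 1 RPKM, with 4 of 8 higher on S129 and 2 higher on CAST. The count of 6 called became 3 without replicate 3, 3 without replicate 4 and 2 without the pairing. Pcna, the replication clamp, had a level of 632 ± 12.7 RPKM and Zfp42, a pluripotency factor, 512 ± 47.2 RPKM, and they differed in opposite directions by 0.23 and -0.18 on the log2 scale (limma adjusted p = 0.00404 and 0.00655). Of 8 autosomal TET partners tested, 3 were higher on S129 and 2 on CAST. Rybp, a Polycomb subunit on chromosome 6, was the only one of these to differ by at least 1 on the log2 scale (1.18 ± 0.08, limma adjusted p = 0.00036), and Sin3a and Idh2 had the highest levels with 137.6 and 94.4 RPKM. In the repair list 3 of 11 were higher on each copy. Parp1 had a level of 1196 ± 133 RPKM and Apex1 of 126.8 ± 10.6 RPKM, while the glycosylase Neil2 showed the largest difference, 2.23 ± 0.14 in favour of S129 (limma adjusted p = 0.000323).

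Of 5 autosomal genes tested on the list of methyl-CpG readers, 1 was higher on each copy. These were Zbtb38 on S129 (1.24 ± 0.08, limma adjusted p = 0.000329) and Mbd3, a subunit of the NuRD complex, on CAST (-0.60 ± 0.04, limma adjusted p = 0.000291), while Mbd1, at a level of 21.4 RPKM, was not called. Zbtb33, which is X-linked, was at 0.895 to 1.35 RPKM on S129. Among partners of Zfp57 in imprint protection, 2 of 7 autosomal genes were higher on S129 and 4 on CAST. The background was 28.9% and 32.5% of autosomal genes, and the difference in count was not tested. Trim28, the corepressor that Zfp57 recruits, had a level of 1310 ± 123.2 RPKM and differed by -0.21 ± 0.03 (limma adjusted p = 0.00397), opposite in sign to Zfp57. Setdb1, a histone methyltransferase that acts with Trim28, differed by -1.15 ± 0.04 (limma adjusted p = 4.37e-05) and lies on chromosome 3, like Tet2. Hdac1, at a level of 110.5 RPKM, was not called, and Atrx is X-linked, with 36.4 to 43.5 RPKM on S129.

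Chromatin partners of de novo methylation were set beside all autosomal genes tested, of which 32.5% were higher on CAST and 28.9% on S129. That lean depends on the scaling: with columns rescaled to 1 autosomal sum, 4154 autosomal genes were higher on S129 and 3687 on CAST. Of these 8 partners, 4 were higher on CAST and 1 on S129, a difference in count that was not tested. The 1 was Ezh2, the Polycomb methyltransferase, at a level of 99.6 ± 13.8 RPKM and a difference of 0.75 ± 0.03 (limma adjusted p = 0.000124), and Nsd1, which methylates histone H3 at the lysine that attracts Dnmt3a in intergenic regions, differed by -0.13 ± 0.03 (limma adjusted p = 0.0216). In methyl donor supply 2 of 6 were higher on each copy, with Mat2b at 57.9 ± 1.8 RPKM and 0.12 ± 0.03, and Mtrr at 29.7 ± 1.6 RPKM and -0.45 ± 0.04 (limma adjusted p = 0.0224 and 0.00102). Of the further relatives and deaminases 2 of the 3 tested were higher on S129 and 1 on CAST. Apobec2 had a level of 26.7 ± 3.6 RPKM with a difference of 0.46 ± 0.06, and Apobec1 one of 8.89 ± 0.18 RPKM with -0.54 ± 0.12 (limma adjusted p = 0.00332 and 0.0163).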

How the data were processed

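Per the labels and the study's methods, the authors made 4 stranded, polyA-enriched libraries from untreated F123-ESCs, removed ribosomal reads, trimmed with Trimmomatic 0.40 after FastQC, aligned with STAR to mm10 masked at strain SNPs and divided reads by SNPsplit into S129 and CAST. The authors deposited RPKM per gene, copy and library. Averages over libraries and their log10 values were also deposited and were not used. The counting program is not given in the sources used here.

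Each of the 8 columns was matched to its library by copy and number; 0 columns belonged to other samples. Identifiers were matched to GENCODE M21 (mm10; 24003 of 24026 genes). Totals, lengths and whole reads were recovered from the steps between RPKM values, for 99.4% of the 20243 genes above 0. Intervals and floors cover counting error only. Copies were compared with limma 3.58.1 (R 4.3.3) on within-library differences, with a pseudocount of 0.1, a filter at 1 RPKM and adjusted p under 0.05. Both values of a pair are reads of 1 library, and their deviations from the copy means correlated at 0.105 to 0.195 over 13341 genes (different libraries, -0.155 to 0.140). These ranges overlap, and the S129 column correlated best with its own CAST column in 3 of the 4 libraries. Pairs of levels used the exact sign-flip test, two-sided, adjusted over 6. S129 shares of single genes are of reads where reads are named, and otherwise of RPKM. Scripts were tested on simulated data.

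The genes and lists were chosen with earlier results of these data known. Of each list, the genes with an absolute log2 difference of at least 1 that were called and the 2 with the highest level were named, except as said in the text. Promoter and protein sequences were not used here. The values of 1 gene on a list are not reported here.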

Additional observations from a re-analysis of the deposited data

Results flagged for a closer look

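Of 36 groups of 4 values checked (the level, both copies' RPKM and the S129 share of 9 genes), 1 held a value far from the others by Dixon's criterion at its 95% critical value. The level of Tet3 in replicate 1 was 0.76 RPKM, and those of the other libraries were 1.02 to 1.07 RPKM. Chance flags about 1 in 20 such groups. Tet3 had the fewest reads of the 9 genes, and without replicate 1 its difference between the copies was 0.24 on the log2 scale, in place of 0.26, and was not called (limma adjusted p = 0.119).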

How the results depend on the processing

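Of 116 recomputed differences between the copies, 101 had the same sign and the same call as reported. Without the replicate block, that is without pairing the copies by library, Dnmt1 (-0.17), Uhrf1 (0.24), Tet1 (-0.15) and Tet3 (0.26) were no longer called, and 4 of 9 genes were called in place of 8; no other call changed. Dnmt3l was called with columns rescaled to 1 autosomal sum (0.11) and with a variance trend (0.064). Tet3 was not called with no filter on low values (0.26), with a variance trend (0.26) or with the chromosome median taken out (0.063), and was -0.0052 with the 10 Mb median taken out. Leaving out 1 library gave -0.16 to -0.14 for Tet1 and 0.20 to 0.32 for Tet3. For these losses the cause was not tested, except that 3 libraries leave fewer values. Tet3 had no value under the filter at 5 RPKM. All 39 counts of genes called and 26 counts pooled over the lists stayed within 1.5 times, and 54 level differences kept their direction. With columns rescaled to 1 autosomal sum, 4154 autosomal genes were called higher on S129 and 3687 on CAST, in place of 3721 and 4180. Counts of single lists, X-linked genes included, moved more. Without the block the calls went from 6 to 2 for maintenance partners, 6 to 3 for repair, 7 to 4 for imprint protection and 4 to 2 for methyl donor supply. With the 10 Mb median taken out, which leaves X-linked genes without a value, they went from 6 to 3 for maintenance partners, 7 to 4 for TET partners and 4 to 2 for methyl-CpG readers, and the filter at 5 RPKM left 1 of these readers called. The ratios of levels depend on the gene length, as given for Dnmt3l, Dnmt3a and Tet2. The length of the longest protein-coding transcript was chosen after seeing the data. With 4 libraries of 1 condition, no level difference could pass 0.05, and low read numbers limit Tet3 and Tdg.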

Other observations

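Imprinted transcripts, whose expression from 1 parental copy depends on the methylation that these enzymes set and keep, were read from the same libraries. Of 19, 16 passed the filter, and 9 differed between the copies, 4 higher on the maternal S129 copy and 5 higher on the paternal CAST copy. The count called is no more than the background, at 61.4% of autosomal genes called, 28.9% higher on S129 and 32.5% higher on CAST. That count takes no account of which parental copy a transcript is expressed from. Peg3, Peg13, Meg3, H19 and Mest were each higher on the copy named below as expressed, and for the others this was not compared. Peg3, Peg13 and Meg3 differed by at least 1 on the log2 scale, as did 11.9% of autosomal genes, and whether 3 of 16 exceeds that share was not tested. Peg3, a paternally expressed zinc finger gene, was at 4.32 to 4.69 RPKM on S129 and at 37.4 to 43.2 RPKM on CAST, with a difference of -3.12 ± 0.04 on the log2 scale (SE, n = 4, limma adjusted p = 4.07e-06). Peg13, another paternally expressed transcript, was at 0.338 to 0.471 RPKM on S129 and at 1.61 to 2.03 RPKM on CAST (-1.99 ± 0.11, limma adjusted p = 0.000254). Meg3, a maternally expressed noncoding RNA, was at 69.0 to 73.4 RPKM on S129 and at 16.2 to 19.02 RPKM on CAST (2.04 ± 0.04, limma adjusted p = 1.13e-05). In none of these 3 did the copies overlap, and reads of the less expressed copy were present in all libraries.

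The other 6 called differed by less than 1 on the log2 scale. H19, maternally expressed in the embryo, was at 904 to 1245 RPKM on S129 and at 825 to 1143 RPKM on CAST, and its difference was 0.14 ± 0.03 (limma adjusted p = 0.0147). Mest, paternally expressed, was at 78.7 to 95.5 RPKM on S129 and at 104 to 130.1 RPKM on CAST (-0.44 ± 0.03, limma adjusted p = 0.000452). Peg10 (-0.34 ± 0.03) and Zrsr1 (-0.24 ± 0.04) were also higher on CAST, and Cdkn1c (0.67 ± 0.14) and Grb10 (0.32 ± 0.07) on S129 (limma adjusted p = 0.000999, 0.00935, 0.0142 and 0.0188); these 4 were named after their values were seen. Nnat was at 0 in all columns.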
